A study of Mus musculus with 6 samples.

Results

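Expression of 7 genes, *Myod1*, *Cdh15*, *Tlx3*, *Ngfr*, *Tbata*, *Hpca* and *Rprml*, was followed in Nestin-expressing cells of the neonatal mouse cerebellum. They were chosen by symbol from the 19630 genes of the deposited table because their values were higher in irradiated than in control libraries. That difference is therefore given for each of them as a description, without a test. Irradiated animals were Nes-CFP/+ Swiss webster mice exposed at postnatal day 1 and taken at postnatal day 5. Control animals had the same genotype, strain and age and were not irradiated. In both groups cells carrying the cyan fluorescent Nes-CFP reporter were sorted by flow cytometry from dissociated cerebella, so the reporter defines the population and every animal carried it. Poly(A)-selected RNA was sequenced in 3 libraries per group, 6 in all. The labels give no dose of irradiation and do not tell which animals each library came from. Every library but irradiated replicate 3 held RNA of both sexes, as given below, and so of more than 1 animal. Whether libraries shared animals is not given, so any p-value reflects the spread between these samples alone, part of which may be technical.

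Granule cell progenitors arise in the rhombic lip under the basic helix-loop-helix factor ATOH1, divide in the external granule layer on the surface of the cerebellum, and then migrate inward as granule neurons. Nestin-expressing progenitors are a separate population of the neonatal cerebellum that gives rise to glia and interneurons. Of the 7 genes, *Myod1*, *Cdh15*, *Tlx3* and *Ngfr* have been described in the granule lineage, although *Myod1* and *Cdh15* are best known from skeletal muscle. *Myod1* encodes a basic helix-loop-helix factor that drives the myogenic programme, and *Cdh15* encodes M-cadherin, a calcium-dependent adhesion molecule of myoblasts and cerebellar granule cells. *Tlx3* encodes a homeobox factor that favours glutamatergic over GABAergic identity in the dorsal spinal cord. *Ngfr* encodes p75NTR, the low-affinity neurotrophin receptor. *Hpca* encodes hippocalcin, a neuronal calcium sensor. *Tbata* was named for its expression in thymus, brain and testis, and *Rprml* is a relative of the p53-induced cell cycle arrest gene *Rprm*.

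Reads assigned to genes numbered 30986269 to 31070520 in the irradiated libraries and 31130326 to 37067530 in the control libraries. Values below are scaled counts, that is reads divided by the library's DESeq size factor (0.953 to 1.16), and a log2 difference is that of irradiated minus control libraries in log2(scaled count + 1). *Nes*, the gene behind the reporter, stood at 13492, 11557 and 7461 in the irradiated libraries and at 10049, 8389 and 9101 in the controls. The glutamate transporter gene *Slc1a3*, the most abundant of the Bergmann glia and astrocyte markers, ranged from 144794 to 241389 in irradiated and from 198642 to 257637 in control libraries. *Atoh1* stood between 283 and 681 in irradiated libraries and between 144 and 324 in controls. In bulk RNA of this kind, more cells of a type and more RNA per cell cannot be told apart.

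The genes lie apart from each other in GRCm38, and all are protein coding. *Myod1* (ENSMUSG00000009471.3) spans 46376474 to 46379099 of chromosome 7 (plus strand), and *Cdh15* (ENSMUSG00000031962.5) 122847966 to 122867397 of chromosome 8 (plus strand). *Tlx3* (ENSMUSG00000040610.7), *Ngfr* (ENSMUSG00000000120.6) and *Rprml* (ENSMUSG00000046215.3) share chromosome 11, where they span 33200752 to 33203589 (minus strand), 95568818 to 95587735 (minus strand) and 103649570 to 103650579 (plus strand). *Tbata* (ENSMUSG00000020096.19) spans 61171954 to 61188841 of chromosome 10 (plus strand), and *Hpca* (ENSMUSG00000028785.12) 129111570 to 129122036 of chromosome 4 (minus strand). *Hpca* shares 57 bp of exon with *Tmem54* on the opposite strand. Use of strand in counting is not given in the sources used here, so reads from those bases cannot be assigned to either gene. *Cdh15* overlaps the gene model Gm20388 on its own strand without a shared exon.

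Because the genes had been seen to move together, the stretch before the start site was compared between members, using RefSeq promoter windows of GRCm38.p6. An entry was found for 6 of the 7 genes, all but *Myod1*. The stretches of *Ngfr*, *Tlx3* and *Rprml* are printed below. They were chosen because they lie on the same chromosome, mostly outside annotated exons, and differ in whether they hold an E-box. An E-box has the letters CANNTG, which basic helix-loop-helix factors such as MYOD1 and ATOH1 bind. Capitals mark E-boxes, and each sequence runs from 5′ to 3′ on the strand of its gene, with bases inside annotated exons left off.
Ngfr, chr11:95587736-95587948, minus strand: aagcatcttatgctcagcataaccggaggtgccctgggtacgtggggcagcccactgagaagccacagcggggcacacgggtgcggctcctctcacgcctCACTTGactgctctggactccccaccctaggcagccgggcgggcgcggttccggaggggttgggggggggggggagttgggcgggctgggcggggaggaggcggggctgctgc
Tlx3, chr11:33203590-33203838, minus strand: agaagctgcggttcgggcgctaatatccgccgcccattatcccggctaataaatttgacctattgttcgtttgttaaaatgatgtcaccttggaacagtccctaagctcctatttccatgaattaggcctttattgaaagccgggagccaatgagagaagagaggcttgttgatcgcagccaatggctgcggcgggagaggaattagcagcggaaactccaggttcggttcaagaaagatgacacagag
Rprml, chr11:103649259-103649508, plus strand: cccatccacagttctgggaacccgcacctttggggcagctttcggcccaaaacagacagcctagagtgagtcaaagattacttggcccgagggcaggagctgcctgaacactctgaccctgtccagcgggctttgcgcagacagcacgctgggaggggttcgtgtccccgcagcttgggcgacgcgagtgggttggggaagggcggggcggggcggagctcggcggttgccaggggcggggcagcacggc
*Ngfr* held an E-box, CACTTG, 150 bases before its start site, and a second one, CAGCTG, 25 bases before it, inside an annotated exon and so outside the printed run. *Tlx3* and *Rprml* held none in the 250 bases before the start, and neither did *Tbata*. In *Cdh15*, whose window lies wholly in annotated exons, there were 3. *Hpca* has several start sites, and E-boxes occurred in the windows of 2 of them. An E-box on either strand was present in 66.2% of 32851 RefSeq promoter windows of the same length, CAGCTG in 13% and CATCTG in 14.4%, the E-box counts including the other two. The letters GACCACCCA, which GLI factors bind, were present in 0.225% of windows and in none of the windows of the 6 genes, and CATCTG was in none of them either. Such matches are letters in a window and say nothing of binding in these cells.

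*Myod1* and *Cdh15*, the genes best known from muscle, were low in control cells and higher in every irradiated library. *Myod1* had 129, 230 and 396 scaled counts in the irradiated libraries, against 12.6, 7.87 and 38.6 in the controls. The lowest irradiated library lay above the highest control library, and replicate 3 was the highest in both groups. The means were 252 ± 135 in irradiated and 19.7 ± 16.6 in control libraries (SD, n = 3 each), a 12.8-fold ratio and a log2 difference of 3.76. *Cdh15* had 96.9, 267 and 281 scaled counts in irradiated libraries, against 22.0, 9.84 and 44.6 in controls. Its groups did not overlap either, and the means of 215 ± 103 in irradiated and 25.5 ± 17.7 in control libraries were 8.44-fold apart. Over the 3 libraries of a group *Myod1* had 739 reads after irradiation, against 65 in controls, and *Cdh15* had 630 after irradiation, against 83 in controls. Scaled by size factors, these sums had a ratio of 12.2 for *Myod1* (95% counting interval by Clopper-Pearson, 9.47 to 16) and of 8.16 for *Cdh15* (6.48 to 10.4). These intervals cover counting error only and leave out the spread between libraries, which was larger.

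*Tlx3* and *Ngfr* were expressed in the controls at levels well clear of 0 and were higher in every irradiated library. *Tlx3* had 123, 281 and 443 scaled counts in irradiated libraries, against 31.5, 26.6 and 83.3 in controls. Irradiated replicate 1 and control replicate 3 came closest to each other without overlap, and the means of 282 ± 160 in irradiated and 47.1 ± 31.4 in control libraries gave a 6.0-fold ratio. *Ngfr* had 635, 1293 and 1928 in irradiated libraries, against 255, 220 and 480 in controls. The same pair of libraries, irradiated replicate 1 and control replicate 3, bounded the gap, and the means were 1285 ± 647 in irradiated and 318 ± 141 in control libraries, a 4.04-fold ratio.

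*Tbata* and *Hpca* were the most abundant of the 7, and *Rprml* was the least. *Tbata* had 863, 1819 and 3326 scaled counts in irradiated libraries, against 308, 214 and 436 in controls, with means of 2003 ± 1242 in irradiated and 319 ± 112 in control libraries. *Hpca*, hippocalcin, had 1373, 2223 and 3937 in irradiated libraries, against 685, 799 and 1027 in controls, with means of 2511 ± 1306 in irradiated and 837 ± 174 in control libraries. For both genes the irradiated libraries lay above all controls, and *Hpca* had the smallest ratio of the 7, at 3.0-fold, with *Tbata* at 6.27-fold. *Rprml* had 36.5, 65.3 and 175 in irradiated libraries, against 6.30, 5.91 and 6.01 in controls. Its control libraries were nearly equal while its irradiated libraries differed 4.81-fold between highest and lowest. *Rprml* had in all 272 reads after irradiation and 19 in controls, a scaled ratio of 15.4 with a counting interval of 9.66 to 25.9.

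**Figure D1:**
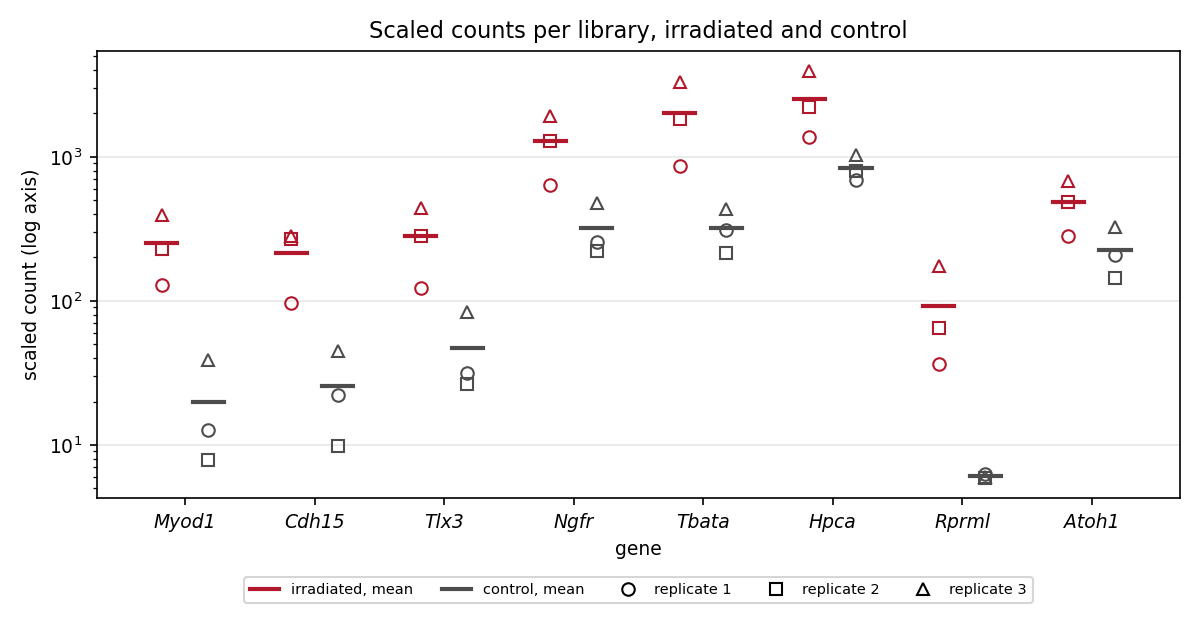
Scaled counts (log axis) of the 7 genes and of *Atoh1* in each library; red marks irradiated and grey control libraries, symbols give the replicate number and bars the group means. For each of the 7 genes the 3 red symbols lie above the 3 grey ones, while for *Atoh1* the lowest irradiated library (283) lies below the highest control (324).

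Compared per kilobase of exon, which allows levels to be set side by side between genes, the order in irradiated cells was *Hpca* (859 scaled counts per kb), *Tbata* (826), *Ngfr* (373), *Tlx3* (184), *Myod1* (135), *Rprml* (91.5) and *Cdh15* (66.2). In control cells *Hpca* (287 per kb) stood first, followed by *Tbata* (132), *Ngfr* (92.4), *Tlx3* (30.7), *Myod1* (10.6), *Cdh15* (7.84) and *Rprml* (6.01). Thus only *Cdh15* and *Rprml* had different places in the order of the 2 groups. *Atoh1*, at 227 per kb in irradiated and 106 in control cells, lay between *Ngfr* and *Tlx3* in irradiated cells and between *Tbata* and *Ngfr* in controls. Several neighbours in the order differed by less than the SD between libraries. In irradiated cells these included *Hpca* and *Tbata*, *Tlx3* and *Myod1*, *Myod1* and *Rprml*, and *Rprml* and *Cdh15*, and in controls *Tbata* and *Ngfr*, *Myod1* and *Cdh15*, and *Cdh15* and *Rprml*.

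All 7 genes passed the filter on low values, a mean scaled count of at least 10, which left 16674 genes. *Rprml* passed only through its irradiated libraries (mean 92.4, against 6.07 in controls). Its rank and its place in the counts below thus rest on the group for which it was chosen. Their log2 differences ran from 1.47 for *Hpca* to 3.76 for *Myod1* with a median of 2.56, against a median of -0.00276 over all genes tested. In the ranking of all tested genes by log2 difference, *Myod1* was at place 2, *Rprml* at 4, *Cdh15* at 6, *Tlx3* at 9, *Tbata* at 12, *Ngfr* at 28 and *Hpca* at 57. In each of the 7 every irradiated library exceeded every control library, as in 4.83% of the genes tested. None of the 7 was among the genes called higher by limma-trend, with a Benjamini-Hochberg adjusted p over all genes below 0.05 (0.042% of the genes tested) or by edgeR on the recovered reads (0.036%), and all 7 had an unadjusted limma p below 0.05, as did 4.5% of genes in either direction. With the replicate number as a block limma called 5 of the 7, all but *Cdh15* and *Rprml*, where 0.126% of genes were called higher. DESeq2 on the recovered reads called all 7 (0.456% of genes called higher). Since the genes were picked for this very difference, these counts are given for completeness and nothing is read from them.

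Single libraries weighed on those calls. Without irradiated replicate 1, which had the lowest value of each of the 7 genes among the irradiated libraries, limma called all 7, where 0.156% of genes were called higher. Without control replicate 3 it called only *Myod1* of the 7 (0.018%). Calls of the 7 genes without each of the other libraries were not counted. Taking out the lowest irradiated library raises the difference by construction, so nothing is read from these calls. The median log2 difference of the 7 genes was 3.07 without irradiated replicate 1, 3.06 without control replicate 3 and, at the lowest, 2.15 without irradiated replicate 3.

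The replicate numbers of the labels recur in both groups, and the difference was next taken within each number. *Myod1* differed by 3.26, 4.70 and 3.32 on the log2 scale in pairs 1, 2 and 3, and *Cdh15* by 2.09, 4.63 and 2.63. *Tlx3* differed by 1.93, 3.35 and 2.40, *Ngfr* by 1.31, 2.55 and 2.0, and *Tbata* by 1.48, 3.08 and 2.93. In these 5 genes pair 2 gave the largest difference and, except in *Myod1*, where pairs 1 and 3 were close, pair 1 clearly the smallest. *Hpca* (1.0, 1.47 and 1.94) and *Rprml* (2.36, 3.26 and 4.65) had another order, with the largest difference in pair 3. Every gene was at least 2-fold higher in the irradiated library of all 3 pairs, as in 0.276% of the genes tested, and the median of the 7 was 1.93, 3.26 and 2.63 in pairs 1, 2 and 3.

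*Atoh1* served as the yardstick of the granule lineage. It had 283, 483 and 681 scaled counts in irradiated libraries, against 209, 144 and 324 in controls. The groups overlapped, with means of 482 ± 199 in irradiated and 225 ± 91.1 in control libraries. Its log2 difference of 1.08 (SE 0.36) did not pass limma (adjusted p = 0.837), nor limma with the replicate block (adjusted p = 0.238) or DESeq2 (adjusted p = 0.147). Within pairs 1, 2 and 3 *Atoh1* differed by 0.43, 1.74 and 1.07, each time higher in the irradiated library.

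Taken relative to *Atoh1*, 6 of the 7 genes were higher in irradiated libraries in every pair. The 7 were chosen for a high difference and that of *Atoh1* was smaller (1.08), so nothing is read from this count. Its share over all genes tested was not computed. Beyond the difference of *Atoh1*, the mean log2 difference was 2.68 for *Myod1*, 2.34 for *Rprml*, 2.03 for *Cdh15*, 1.48 for *Tlx3*, 1.42 for *Tbata*, 0.87 for *Ngfr* and 0.39 for *Hpca*. *Ngfr* held nearly the same distance in all pairs (0.88, 0.81 and 0.93), and *Tlx3* did so too (1.5, 1.61 and 1.33). *Hpca* was 0.57 and 0.87 beyond *Atoh1* in pairs 1 and 3 and -0.27 in pair 2, so its ratio to *Atoh1* was not higher after irradiation in every pair. *Rprml* varied most, with 1.93, 1.52 and 3.58.

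**Figure D2:**
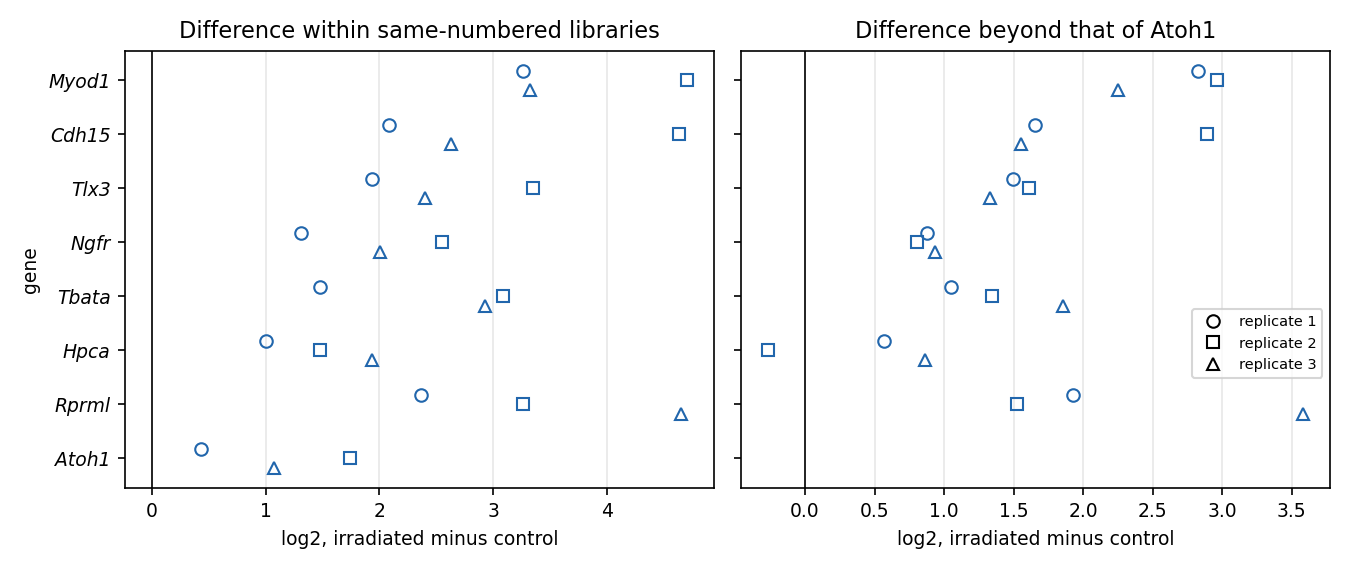
Left, log2 difference (irradiated minus control) of each gene within the 3 same-numbered pairs of libraries; right, the same after subtracting the difference of *Atoh1* in that pair. All points on the left lie above 0, and on the right only *Hpca* in pair 2 lies below it, at -0.27.

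Within a group, the 7 genes varied between libraries in nearly the same order. In the irradiated group all 7 had replicate 1 lowest, replicate 2 in the middle and replicate 3 highest, an order that *Atoh1* shares with 24.2% of the genes tested. *Myod1*, *Cdh15*, *Tlx3*, *Ngfr* and *Tbata* also had the order of *Atoh1* in the controls, where replicate 2 was lowest and replicate 3 highest, and 6.16% of tested genes had its order in both groups. *Hpca* had replicate 1 lowest in the controls, and *Rprml* was level there. Irradiated replicate 3 was at least 2-fold above irradiated replicate 1 in all 7, as in 4.19% of genes tested, and the ratio of highest to lowest irradiated library ran from 2.87 in *Hpca* to 4.81 in *Rprml*.

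Other transcripts varied along the same libraries. *Neurod1*, a factor of differentiating granule neurons, had 2798, 3667 and 5623 scaled counts in irradiated libraries, against 2269, 2758 and 4737 in controls, so replicate 3 was highest in both groups. The glial *Slc1a3* ran the other way in the irradiated libraries, with 241389, 211335 and 144794, against 257637, 201287 and 198642 in controls. The Bergmann glia and astrocyte list of 10 genes, all listed, summed to between 477938 and 740335 in irradiated and between 645959 and 802039 in control libraries, with 9 of its 10 genes lower in irradiated cells, none called and 1 at an unadjusted p below 0.05. The part of these shifts in the differences of the 7 genes was not tested.

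Like the 7 genes, the Y-linked transcripts were highest in irradiated replicate 3. *Ddx3y*, an RNA helicase gene on the Y chromosome, had 1404, 1893 and 3916 scaled counts in irradiated libraries, against 144, 806 and 2058 in controls. Its groups overlapped, unlike those of the 7 genes. Its lowest control library was replicate 1, as in *Hpca* but in no other of the 7. All 4 Y-linked genes measured were higher in irradiated cells, at an unadjusted limma p below 0.05 each. Limma called none of them, and with the replicate block it called *Eif2s3y* (adjusted p = 0.0347). They summed to between 3939 and 8911 in irradiated and between 1536 and 5095 in control libraries. *Xist*, expressed from the inactive X chromosome, had 30165, 21073 and 26.2 in irradiated libraries, against 31250, 85481 and 32870 in controls. Every library but irradiated replicate 3 thus held *Xist* beside Y-linked RNA, that is RNA of both sexes and so of more than 1 animal. Irradiated replicate 3, the highest library for all 7 genes, had almost no *Xist*. With the Y-linked level as a covariate the log2 difference was 2.55 for *Myod1*, 2.86 for *Rprml*, 2.21 for *Cdh15*, 1.73 for *Tbata*, 1.41 for *Tlx3*, 1.10 for *Ngfr* and 0.81 for *Hpca*, and 0.42 for *Atoh1*. In that fit none of the 7 was called, where 0.108% of genes were called higher. The Y-linked level was itself higher in the irradiated group, so that fit cannot tell sex and irradiation apart. The labels give no sex of the animals, and its part was not tested.

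**Figure D3:**
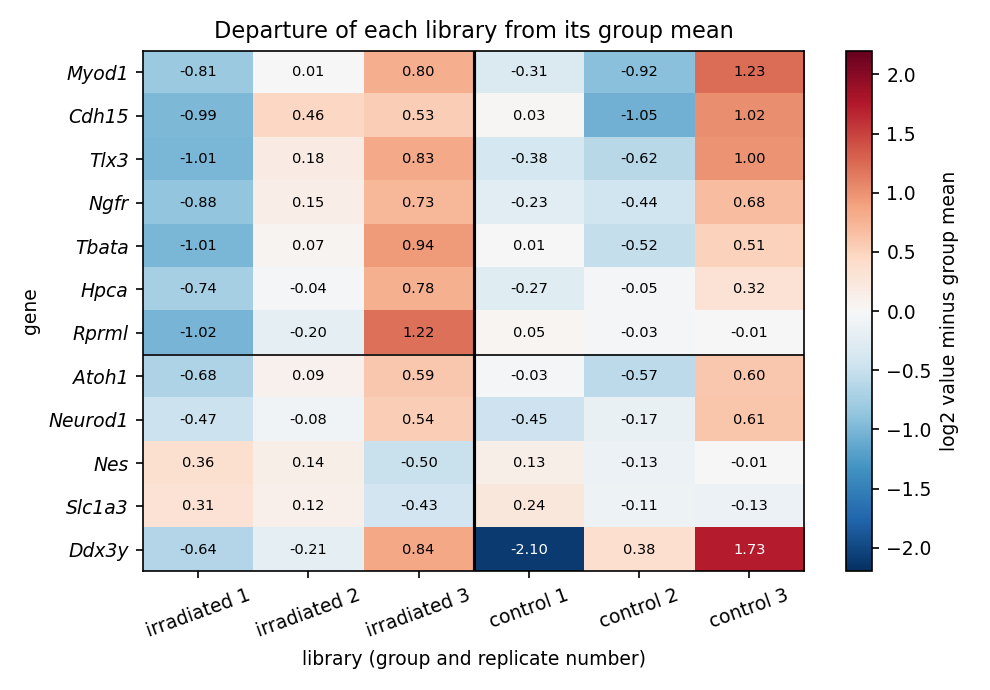
Departure of each library from the mean of its group on the log2 scale, for the 7 genes (above the line) and 5 other transcripts (below it), irradiated libraries on the left and control libraries on the right. Irradiated replicate 1 is below and irradiated replicate 3 above the group mean for all 7 genes, *Atoh1*, *Neurod1* and *Ddx3y*, and the reverse for *Nes* and *Slc1a3*.

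To see whether the programmes around each gene differed too, related gene lists were counted in the fit of all genes, in which limma called 0.054% of the genes tested in either direction, beside the 4.5% at an unadjusted p below 0.05. In the lists where limma called no gene, the block, edgeR and DESeq2 called none either unless a call is given below. Of 22 granule progenitor and rhombic lip transcription factors 12 were higher and 10 lower in irradiated cells, with a median log2 difference of 0.0175. None was called, with 3 higher and 1 lower at an unadjusted p below 0.05. *Zic1*, a zinc finger factor and the highest of the list, had 28824, 30197 and 28175 scaled counts in irradiated libraries, against 30244, 29286 and 30632 in controls. *Atoh1* had the largest difference among those with a mean of at least 50. *Olig3*, a rhombic lip factor named here after its values were seen, had 19.8, 31.1 and 50.4 in irradiated libraries, against 6.30, 1.97 and 10.3 in controls, with groups that did not overlap (limma adjusted p = 0.342). In 4.83% of the genes tested every irradiated library likewise exceeded every control library. The order of libraries in *Olig3* was that of *Atoh1* in both groups, as in 6.16% of tested genes. *Olig3* passed the filter on low values only through its irradiated libraries (mean 33.8, against 6.19 in controls). It was picked for its values, so nothing is read from them. Of 22 granule neuron differentiation genes 11 were higher and 11 lower, with none called and 1 in each direction at an unadjusted p below 0.05. *Grin2c*, an NMDA receptor subunit gene of mature granule cells with the largest difference, had 53.2, 100 and 140 in irradiated libraries against 50.4, 41.3 and 66.1 in controls (limma adjusted p = 1).

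The partners and the programme of *Myod1* were measured only in part. Its E protein partners and the ID inhibitors, which block basic helix-loop-helix dimers, differed little, with 2 of 7 higher, 5 lower and none called or below an unadjusted p of 0.05. *Tcf4*, the highest of these, had 23337, 26726 and 28596 scaled counts in irradiated libraries, against 23729, 30338 and 29041 in controls. Among the myogenic paralogs, *Myog*, encoding myogenin, had 8.34, 12.4 and 21.2 in irradiated libraries, against 4.2, 0.98 and 0 in controls. These values do not overlap but lie under the filter, so *Myog* was not in the fit. *Myf5* and *Myf6* were not analysed here. Of 29 muscle genes 20 were listed and 13 tested, with 9 higher, 4 lower, none called by limma and 1 at an unadjusted p below 0.05. DESeq2, which called 0.624% of all genes in either direction, called *Actc1*, the cardiac actin gene, which had 52.1, 60.1 and 67.5 in irradiated libraries, against 25.2, 18.7 and 14.6 in controls (limma adjusted p = 0.183). The muscle progenitor factor gene *Pax7* had 24.0, 8.29 and 10.1 in irradiated libraries, against 22.0, 11.8 and 25.8 in controls, and the muscle filament gene *Des* had 14.6, 17.6 and 35.3, against 37.8, 23.6 and 36.1 in controls. *Actc1*, *Pax7* and *Des* were named after their values were seen. Summed over the listed muscle genes, the level was 7239 to 8853 in irradiated and 7849 to 8674 in control libraries, most of it from *Pax3*, a factor that neural cells also express.

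Of 21 classical cadherins and catenins tested beside *Cdh15*, 6 were higher and 15 lower. *Cdh1*, encoding E-cadherin, was called lower (limma adjusted p = 0.0205, with the block 0.0442), with 1.04, 2.07 and 0 scaled counts in irradiated libraries, against 45.1, 29.5 and 49.8 in controls. The call ended when the Y-linked level was a covariate (adjusted p by limma 0.061) and without control replicate 1, 2 or 3 (limma adjusted p = 0.133, 0.168 and 0.0985). DESeq2 called *Cdh1* and also *Cdh3*, encoding P-cadherin, which had 36.5, 38.3 and 34.3 in irradiated libraries, against 78.7, 125 and 98.7 in controls (DESeq2 adjusted p = 0.00137, limma adjusted p = 0.169). Among the cadherins tested *Cdh15* and *Cdh1* stood at opposite ends of the differences. *Cdh15* was chosen for being higher in irradiated libraries, so nothing is read from its place. *Cdh1* passed the filter on low values only through its control libraries (mean 41.5, against 1.04 in irradiated libraries). *Cdh2*, N-cadherin, named for its role in neural progenitors after its values were seen, had 4602, 5595 and 5002 in irradiated libraries, against 5010, 4332 and 4895 in controls (limma adjusted p = 1).

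For *Tlx3*, the list of the glutamatergic or GABAergic choice holds genes of both fates, so its direction is not that of 1 fate. Of 13 tested, 12 were lower in irradiated cells and 1 was higher, with a median log2 difference of -0.45. None was called by limma, with 5 lower at an unadjusted p below 0.05, while 2 were called lower with the replicate block (which called 0.15% of all genes) and 3 by DESeq2. *Slc17a6*, encoding the vesicular glutamate transporter VGLUT2, had 60.5, 91.2 and 161 scaled counts in irradiated libraries, against 260, 409 and 593 in controls. Its groups did not overlap, and its log2 difference of -2.04 had an adjusted p of 0.183 by limma and 0.0246 with the block. Of the other vesicular glutamate transporter genes, *Slc17a7* had a log2 difference of -0.16 and *Slc17a8* of 0.58, and limma called neither. *Pax2*, a factor of GABAergic interneuron precursors named for its call with the block, had 232, 373 and 282 in irradiated libraries, against 496, 729 and 588 in controls (limma adjusted p = 0.237, with the block 0.0442). *Ptf1a*, the GABAergic fate factor with the highest level of the list, had 1776, 1922 and 1642 in irradiated libraries, against 1682, 1873 and 2224 in controls (limma adjusted p = 1). The paralogs *Tlx1* and *Tlx2* were not analysed here.

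The neurotrophin system around *Ngfr* was measured at the level of ligands, receptors and intracellular partners. Of the ligands, *Bdnf* and *Ntf3* were listed and low. *Ntf3*, encoding neurotrophin 3, had 17.7, 21.8 and 31.2 scaled counts in irradiated libraries, against 21.0, 33.5 and 50.6 in controls (limma adjusted p = 1). Of 9 other receptors and coreceptors tested, 3 were higher, 6 lower and none called, with *Rtn4r* alone at an unadjusted p below 0.05. *Ntrk2*, encoding the BDNF receptor TrkB, was the highest, with 13612, 14240 and 12021 in irradiated libraries against 16274, 12609 and 13399 in controls. *Rtn4r*, the Nogo receptor gene, which works with p75NTR, had 125, 158 and 126 in irradiated libraries, against 72.4, 66.9 and 116 in controls (limma adjusted p = 0.928). Of 9 intracellular partners 7 were higher, 2 lower and none called or below an unadjusted p of 0.05, and *Maged1*, an adaptor of p75NTR and the highest of them, had 33976, 33231 and 34127 in irradiated libraries against 39388, 30702 and 37814 in controls.

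The relatives of *Hpca* and *Rprml* were also measured. Of 9 other neuronal calcium sensors 5 were higher, 4 lower and none called or below an unadjusted p of 0.05. *Ncald*, neurocalcin delta, had 13418, 12134 and 11583 scaled counts in irradiated libraries, against 14061, 10661 and 12839 in controls. *Vsnl1*, visinin-like 1, had 98.0, 98.4 and 145 in irradiated libraries, against 101, 64.0 and 98.7 in controls. *Hpcal1* and *Hpcal4*, the closest relatives measured, had log2 differences of 0.05 and -0.18. *Rprm*, encoding Reprimo, had 679, 769 and 886 in irradiated libraries, against 746, 514 and 684 in controls, a log2 difference of 0.27 (limma adjusted p = 1). In the list of *Rprm* and other p53-induced genes all 10 were higher after irradiation, 7 of them at an unadjusted limma p below 0.05. Limma called 2, *Cdkn1a* (adjusted p = 0.00372) and *Phlda3* (adjusted p = 0.0316), with 4 called under the replicate block and 5 by DESeq2. The *Phlda3* call ended without control replicate 1, 2 or 3 (limma adjusted p = 0.0894, 0.201 and 0.0918) and without irradiated replicate 2 (limma adjusted p = 0.301), while *Cdkn1a* stayed called under each alternative. *Phlda3*, an Akt inhibitor, had 496, 555 and 374 in irradiated libraries, against 154, 105 and 142 in controls. Irradiated replicate 3 was the lowest irradiated library for *Phlda3*, whereas it was the highest for *Rprml*.

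**Figure D4:**
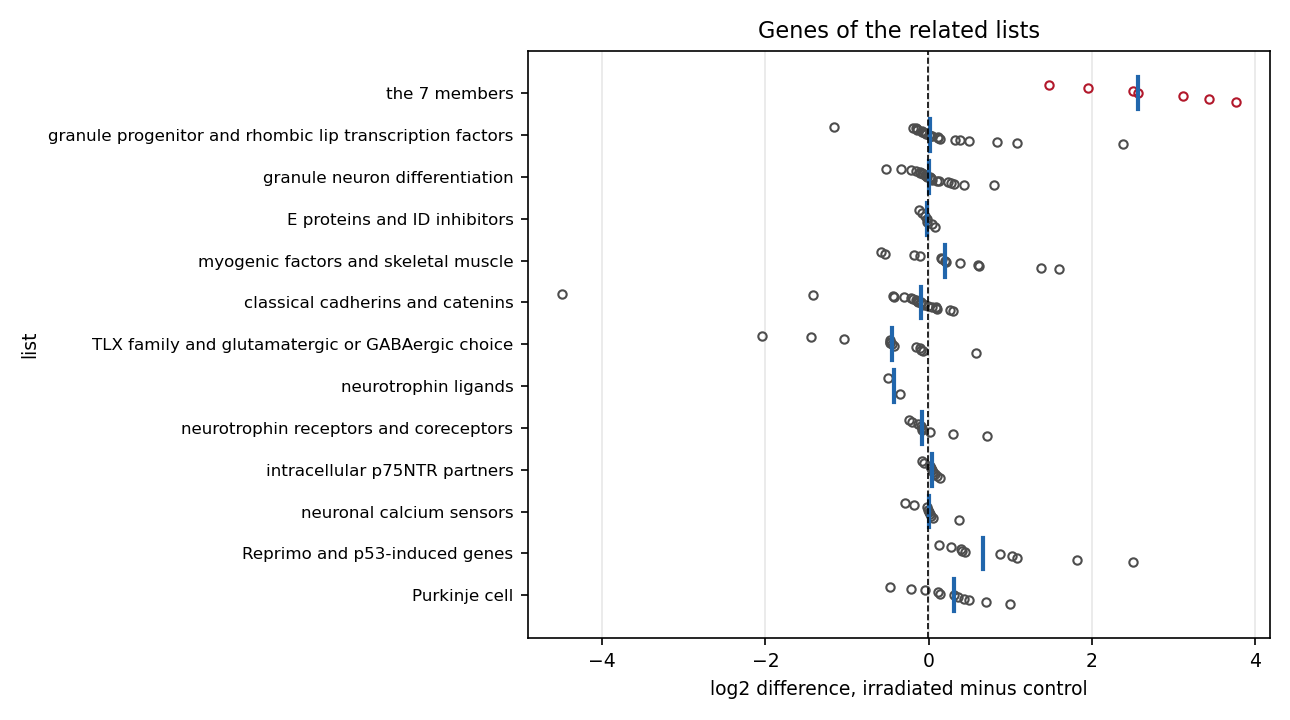
Log2 differences (irradiated minus control) of the 7 genes in red and of the tested genes of the related lists in grey, 1 point per gene, with a blue bar at the median of each list. The 7 genes lie between 1.47 and 3.76, while the medians of the granule lineage lists lie near 0 and that of the glutamatergic or GABAergic list at -0.45.

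Markers of other cells that the sort could hold were read beside these values. Of 11 Purkinje cell genes, all listed, 8 were higher after irradiation, 4 of them at an unadjusted p below 0.05, and none was called. They summed to between 7780 and 9629 in irradiated and between 6630 and 9168 in control libraries. *Calb1*, calbindin, had 897, 571 and 940 in irradiated libraries, against 351, 507 and 625 in controls (limma adjusted p = 0.903). Schwann cell and neural crest genes, 9 of 10 listed and 7 tested, had 4 higher and 3 lower, with 2 at an unadjusted p below 0.05 and sums of 7313 to 8983 in irradiated and 6404 to 8920 in control libraries. Of 6 unipolar brush cell genes 5 were lower, among them *Eomes*, their marker transcription factor, with 302, 451 and 418 in irradiated libraries against 857, 699 and 930 in controls. *Eomes* did not pass limma (adjusted p = 0.151) and was called by DESeq2 (adjusted p = 3.23e-05). Of 10 meningeal fibroblast and pericyte genes 9 were lower, and of 8 Nestin progenitor genes 7 were lower, with none called by limma in these lists. At an unadjusted p below 0.05 stood 3 of the unipolar brush cell genes, 1 fibroblast or pericyte gene and none of the Nestin progenitor genes. Oligodendrocyte lineage genes had 4 of 7 higher and none below an unadjusted p of 0.05, with *Pdgfra*, a receptor of their precursors, at 10293, 14259 and 18446 in irradiated libraries and 16534, 10532 and 17053 in controls. Their part in the differences of the 7 genes was not tested.

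The genes with the profile most like each of the 7 over the 6 libraries were then looked up among 12443 genes with a mean scaled count of 50 or more, leaving out the 7 themselves and predicted, mitochondrial and ribosomal protein genes. Likeness was the mean absolute difference between log2 profiles, each centred on its own mean, so a smaller value is a closer match. All these genes share the same libraries, so the measure is a description. Each profile also holds the difference between groups for which the 7 were chosen. The nearest genes, the closeness among the 7 and the ranks of *Atoh1* are therefore partly set by that choice. *Epha8*, encoding an ephrin receptor, came first among these for *Cdh15* (0.45), *Tlx3* (0.34), *Tbata* (0.18) and *Rprml* (0.39), with *Insm2*, a zinc finger gene, second among them for *Cdh15* (0.50), *Tlx3* (0.35) and *Tbata* (0.22). *Epha8* had 564, 1601 and 2246 scaled counts in irradiated libraries, against 212, 146 and 200.9 in controls. For *Myod1* the likeness of *Cdkn1a* was 0.69. For *Ngfr* the closest genes were *Crispld1* (0.14) and *Angptl2* (0.19), and for *Hpca* they were *Nxph3* (0.15) and *Hs3st5* (0.16). *Crispld1* had 140, 220 and 446 in irradiated libraries, against 58.8, 52.2 and 95.3 in controls, and *Nxph3*, neurexophilin 3, had 437, 862 and 1471 in irradiated libraries, against 240, 226 and 420 in controls. *Atoh1* ranked from place 29 for *Ngfr* to place 49 for *Rprml*. By the same measure some of the 7 lay closer to each other than to any of these genes, such as *Cdh15* to *Tlx3* (0.33) and to *Myod1* (0.36). Among the 7 *Tlx3* and *Tbata* had the closest profiles (0.21) and *Myod1* and *Hpca* the least alike (1.15).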

How the data were processed

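RNA-seq values of sorted Nes-CFP+ cells were taken from the table the authors deposited, a signal of counts scaled by DESeq with 1 added to each value. Per the submitters' processing notes the tools were HTSeq and DESeq and the build mm10, with no versions given. Information on the aligner, annotation and strandedness is not given in the sources used here. After 1 was subtracted, 100% of the values in each of the 6 libraries were whole multiples of 1 read within 0.001 reads (largest distance 5.08e-05). The recovered reads depend on that subtraction, and count tests on them were used as alternatives only. The lowest sum of reads of a listed gene was 15, and genes below that are not analysed here. Dates stood in place of symbols in 25 rows and were corrected by gene ID. Of all IDs 19542 matched GENCODE M21 on GRCm38 and 88 did not.

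The 16674 genes whose mean scaled count reached 10 were tested in R 4.3.3 by limma-trend (version 3.58.1) on log2(scaled count + 1), two-sided, with Benjamini-Hochberg adjustment at 0.05. The added 1 lowers the fold changes of low genes, as in *Rprml* (log2 difference 3.43, against 3.52 with 0.5 added). Even so, *Myod1* (3.76) and *Cdh15* (3.12) stood above their DESeq2 values of 3.66 and 3.07. Alternatives were edgeR 4.0.16 (quasi-likelihood) and DESeq2 1.42.0 on the recovered reads, other scalings, pseudocounts and filters, the replicate block, a Y-linked covariate and leaving out each library.

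Deviations from the group means correlated across genes by 0.305, 0.151 and 0.451 between same-numbered libraries and by -0.342 to 0.0503 between others, and libraries of the same number were therefore treated as pairs. This rests on the data alone, as no label explains the numbers.

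The 7 genes and the 19 related lists were chosen with earlier results of these data known. Beside the 7, the rule for named genes took *Atoh1*, *Nes*, every called gene of a list or else its highest gene and the one with the largest difference, the 2 nearest profiles and the paralogs. Values are printed for those that bear on the 7, and a gene that the rule names is not reported here. Genes named outside it are *Olig3*, *Neurod1*, *Xist*, *Actc1*, *Pax7*, *Des*, *Cdh2*, *Cdh3*, *Pax2*, *Slc17a7*, *Slc17a8*, *Eif2s3y* and *Bdnf*, chosen after their values were seen. Promoter sequences are RefSeq's, build GRCm38.p6, and coordinates are 1-based.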

Additional observations from a re-analysis of the deposited data

How the results depend on the processing

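The number of genes called by limma was 9. It was 104 with DESeq2, 25 with the replicate block, 28 with the Y-linked covariate, and 1 to 29 without single libraries (29, 3 and 7 without irradiated replicate 1, 2 and 3, and 2, 1 and 3 without control replicate 1, 2 and 3). It was 6 to 9 under edgeR, other scalings, pseudocounts and filters. Of the 195 list genes tested limma called 3, against 12 with DESeq2, 8 with the replicate block, 5 with the Y-linked covariate and 1 to 4 without single libraries. The median log2 difference of the 7 genes was 2.56, 1.73 with the Y-linked covariate, and 2.15 to 3.07 without single libraries. The causes were not tested. The groups did not overlap in any of the 7 genes under each alternative that gives this count, except that *Rprml*, with a mean below 50, dropped out at that filter, leaving 6. Of these alternatives only the other scalings could have changed it. Pseudocounts, filters and leaving out a library cannot make separate groups overlap. The genes were chosen for this difference, so nothing is read from the count. No log2 difference of the 7 genes or *Atoh1* changed sign. Depth limits *Rprml* most, with 19 control reads.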
